A study of Mus musculus with 12 samples.

Results

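The genes Ccn1, Ccn2, Hbegf, Areg, Ankrd1 and Egfr, grouped as stretch-linked growth factors of the CCN and EGF families with their receptor and a stretch-responsive muscle protein, were followed in mouse lung. The 6 symbols were chosen with earlier results of these data known. Members were all probe sets that the platform annotation gives to them, taken without regard to their values. This gave 12 of the 22690 probe sets in the values table: 2 for Ccn1, 1 for Ccn2, 2 for Hbegf, 2 for Ankrd1 and 5 for Egfr. The annotation lists 0 probe sets for Areg, which encodes the EGF-like ligand amphiregulin, so Areg was not analysed here. A filter on low signal kept 11 of the 12 members among 15855 probe sets. The fifth Egfr probe set, 1454313_at, had signals of 27.3 to 89.3 and reached a scaled signal of 100 on 0 of the 12 arrays.

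The lungs came from CD-1/ICR mice that lacked Nrf2 (KO, Nrf2-/-) or carried both copies (WT, Nrf2+/+). In each genotype, 3 arrays were made after 2 h of mechanical ventilation at a high tidal volume of 30 ml/kg (HVT), and 3 after 2 h of spontaneous ventilation (SpV), so the 4 groups were KO HVT, KO SpV, WT HVT and WT SpV with n = 3 arrays each. The HVT groups thus differ from their SpV controls in the ventilator as well as in lung stretch, and no arm at a low tidal volume was analysed here. The labels give neither the deleted part of Nrf2 nor the ages of the mice, and describe the tissue as the left lobe for 11 arrays and as whole lung for WT SpV array 1. Nothing states that arrays of a group came from separate animals, so the p-values measure the spread between these arrays, which may be technical.

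CCN1 (formerly CYR61) and CCN2 (formerly CTGF) are secreted matrix proteins that bind integrins and heparan sulphate. Their genes are textbook targets of the coactivators YAP and TAZ, which enter the nucleus of stretched or spread cells and act through TEAD transcription factors, and they also respond to SRF, AP-1 and TGF beta. HB-EGF, encoded by Hbegf, is made as a membrane-bound precursor that metalloproteases such as ADAM17 cut free, after which it activates the EGF receptor, a tyrosine kinase of the alveolar and airway epithelium among other cells. ANKRD1 is an ankyrin repeat protein of the heart muscle sarcomere and nucleus whose gene is induced by stretch and is another YAP target. NRF2, encoded by Nfe2l2, activates genes through antioxidant response elements.

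The promoters of Ccn1 and Ankrd1 are shown because Ccn1 had the largest ventilation difference among the genes' brightest probe sets and Ankrd1 the largest difference between genotypes. Both run 5′ to 3′ on the minus strand from 250 bases before to 50 bases after the start site, in the RefSeq annotation of GRCm38.p6. Ccn1 lies at chr3:145649936-145650235 and Ankrd1 at chr19:36119795-36120094. Capitals mark matches, on either strand, to the TEAD motif GGAATG and to a short antioxidant response element, TGACNNNGC.
Ccn1 promoter: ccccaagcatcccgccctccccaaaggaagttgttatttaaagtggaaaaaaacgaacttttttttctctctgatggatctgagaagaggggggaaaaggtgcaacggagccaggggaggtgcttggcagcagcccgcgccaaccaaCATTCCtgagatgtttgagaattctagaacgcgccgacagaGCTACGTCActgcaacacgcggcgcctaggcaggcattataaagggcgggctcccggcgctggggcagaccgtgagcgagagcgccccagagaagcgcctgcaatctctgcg
Ankrd1 promoter: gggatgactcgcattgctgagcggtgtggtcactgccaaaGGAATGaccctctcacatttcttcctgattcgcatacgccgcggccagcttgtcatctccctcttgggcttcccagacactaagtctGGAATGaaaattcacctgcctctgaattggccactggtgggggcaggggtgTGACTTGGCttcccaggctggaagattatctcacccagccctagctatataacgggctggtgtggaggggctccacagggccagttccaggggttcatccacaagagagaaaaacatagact
The Ccn1 promoter held 1 TEAD match, from -103 to -98 relative to the start site on the opposite strand, and 1 antioxidant response element match, from -62 to -54 on the opposite strand. The Ankrd1 promoter held TEAD matches from -210 to -205 and from -123 to -118 and an antioxidant response element match from -72 to -64, all on the gene's own strand. Neither match is rare: of 32851 promoters of the same length, 14.7% held GGAATG and 12.4% held TGACNNNGC. The AP-1 motif TGANTCA, held by 7.81% of promoters, the cAMP response element TGACGTCA, held by 1.79%, and the CArG box bound by SRF, held by 1.63%, had no match in these 2 windows. The window of Egfr had no match to any of the 5 motifs. A match describes letters and is not evidence of binding.

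The arrays differed in brightness and RNA integrity, and KO SpV array 1 stood apart. Its trimmed mean signal before normalization was 73.9, against 182 to 469.5 on the other 11 arrays, and its ratio of 3' to 5' beta-actin control signal was 8.76, against 1.39 to 3.10. It correlated with the rest at a mean r of 0.873, where each of the others had 0.925 to 0.942. For each member difference below whose call, sign or value (by over 1.5 times) depends on this array, the value without it is given too. Counts over the 11 kept members and their medians use all 12 arrays unless stated. Nfe2l2 lay at 36.2 to 61.3 on the 6 KO arrays and at 2144 to 3298 on the 6 WT arrays, so the genotype labels held on every array. Summed signals of 7 alveolar type II cell markers were 65391 to 75226 in KO HVT, 58185 to 88402 in KO SpV, 72131 to 83539 in WT HVT and 85170 to 97026 in WT SpV lungs. Signals below are normalized and linear, differences are on the log2 scale ± SE from limma after adding 16 to the signal, and a probe set was called at an adjusted p under 0.05 over all 15855.

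None of the 11 kept member probe sets was called in any of the 7 comparisons. With ventilation in WT lungs 0 of 11 were called, where 0.0252% of all probe sets were, and 4 of 11 had an unadjusted p under 0.05, where 7.28% of all did. With ventilation in KO lungs 0 of 11 were called, where 0% of all were, and 1 had an unadjusted p under 0.05, where 11.1% of all did. Averaged over genotypes the ventilation comparison called 0 of 11 against 0.126% of all, with 2 at an unadjusted p under 0.05 against 13.2%. The comparison of KO with WT called 0 of 11 in SpV lungs (0.505% of all), 0 of 11 in HVT lungs (0.656%) and 0 of 11 averaged over breathing (3.27%). At an unadjusted p under 0.05 these genotype comparisons had 0, 1 and 2 members, where 12.9%, 12.5% and 19.8% of all probe sets did. The interaction of genotype with ventilation called 0 of 11 members and 0% of all probe sets, with 0 members and 5.04% of all at an unadjusted p under 0.05.

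What the members did show in WT lungs was separation without passing the test. For 5 of the 11 probe sets, all those of Ccn1, Ccn2 and Hbegf, the 3 WT HVT arrays lay above the 3 WT SpV arrays, an arrangement seen in 8.39% of all probe sets. The Ankrd1 and Egfr probe sets overlapped, and 0 of 11 lay lower throughout, where 8.04% of all did. In KO lungs 0 of 11 separated in either direction, where 7.47% of all probe sets lay higher and 7.49% lower on KO HVT arrays. Without KO SpV array 1, the Hbegf probe sets and Egfr 1424932_at lay lower throughout on KO HVT arrays, and Egfr 1460420_a_at and 1432647_at higher. Between genotypes 0 of 11 separated in SpV lungs (8.5% of all higher and 9.29% lower in KO). Without that array the Ccn1, Hbegf and Ankrd1 probe sets lay higher throughout in KO SpV lungs, and Egfr 1460420_a_at and 1432647_at lower. With 2 KO SpV arrays in place of 3, groups separate more readily. Shares of all probe sets without KO SpV array 1 were not computed, so these separations without it are a description only. In HVT lungs 0 were higher throughout in KO, against 11.4% of all, and 1 was lower, against 13.2%. With the deposited values unscaled 7 of 11 were lower in KO HVT lungs, where the median of all probe sets moved by -0.77, and with equal medians 2 were. Unscaled, 1 of 11 was higher throughout with ventilation in KO lungs. The median difference of the 11 members was 0.25 in WT lungs and 0.15 in KO lungs, beside -0.02 and 0.01 over all probe sets. Between genotypes it was 0.38 in SpV lungs and -0.41 in HVT lungs, beside -0.02 and 0.00. Without KO SpV array 1 the KO ventilation values were -0.43 and -0.64 for Ccn1, -0.88 and -0.77 for Hbegf and -0.41 for Ankrd1 (1420991_at). Those of Ccn2, Ankrd1 (1420992_at) and Egfr (1460420_a_at and 1432647_at) were positive. In SpV lungs KO then exceeded WT by 1.51 for Ccn1 (1416039_x_at), 1.78 and 1.32 for Hbegf, and 1.05 and 1.27 for Ankrd1. Ccn2 differed by 0.23 and Egfr (1460420_a_at) by -0.32. Medians without that array are not given. In whole tissue, fewer cells of a type and less RNA per cell cannot be told apart. With trimmed-mean scaling alone or with the deposited values unscaled, 4 of the 11 separated upwards in WT lungs.

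**Figure D1:**
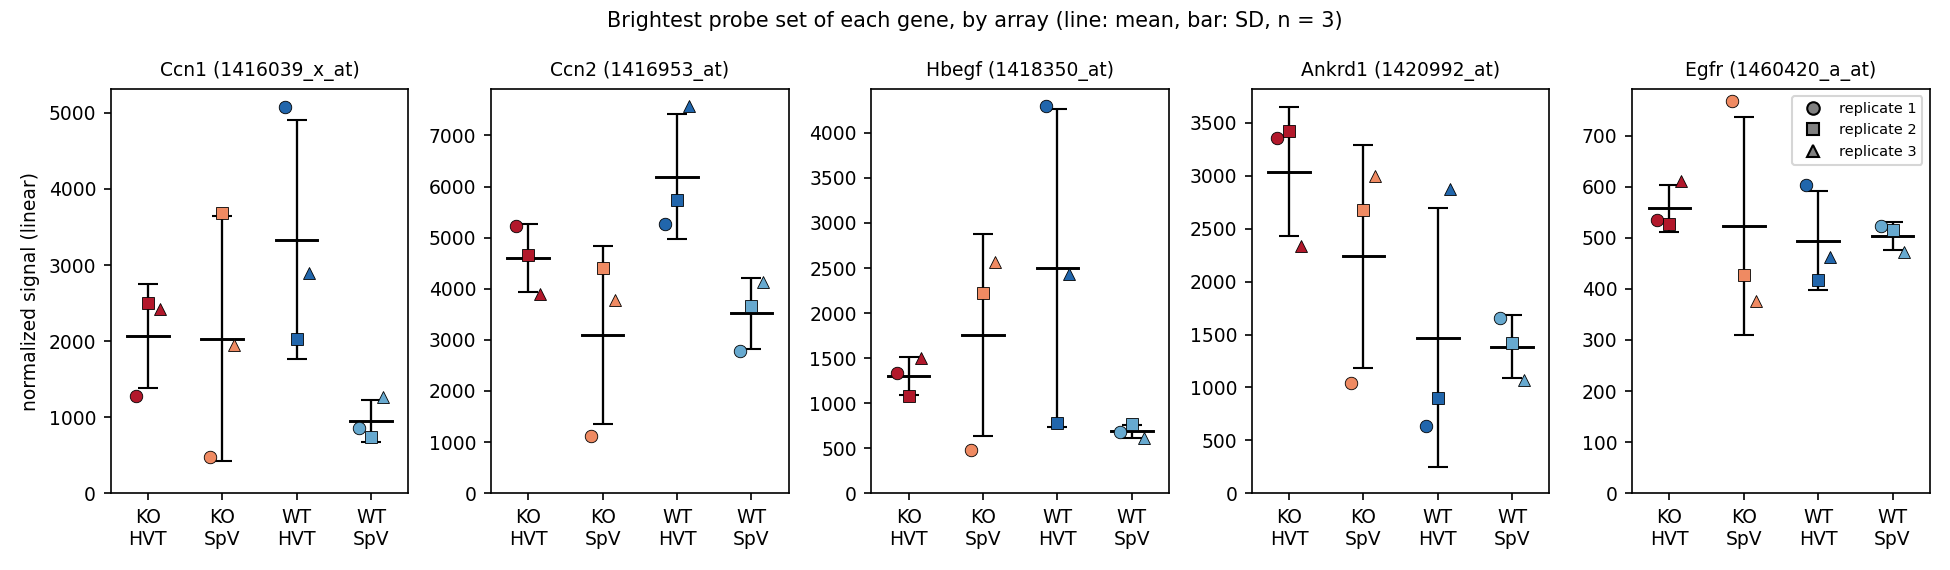
Normalized signal (linear) of the brightest probe set of Ccn1, Ccn2, Hbegf, Ankrd1 and Egfr on each of 12 arrays, by group, with replicate numbers as symbols, the mean as a line and the SD as a bar (n = 3). WT HVT arrays sit above WT SpV arrays for Ccn1, Ccn2 and Hbegf, KO SpV array 1 is lowest for the same 3 genes, and each y axis has its own range from 0.

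Ccn1 gave the largest ventilation difference in WT lungs. Its brighter probe set, 1416039_x_at, read 5082, 2029 and 2893 on the WT HVT arrays, against 859, 734 and 1262 on the WT SpV arrays. The lowest ventilated array thus lay above the highest control array. The difference was 1.73 ± 0.59, a 3.31-fold higher signal, with a 95% interval of 0.45 to 3.0 and a limma adjusted p of 0.477. Probe sets ending in x_at can bind related transcripts, and the second Ccn1 probe set, 1438133_a_at, gave 3146, 1441 and 1947 on WT HVT arrays, against 475, 362 and 749 on WT SpV arrays. It showed the same separation, with a difference of 2.00 ± 0.86 (limma adjusted p = 0.637), and followed the first across the 12 arrays with r = 0.974. The averages over genotypes were 1.06 ± 0.42 for Ccn1 (1416039_x_at) and 0.71 ± 0.43 for Hbegf (1418350_at), with limma adjusted p = 0.299 and 0.502. Leaving out KO SpV array 1 gave 0.65 ± 0.27 for Ccn1 and 0.33 ± 0.33 for Hbegf (adjusted p = 0.164 and 0.567). Without the whole-lung array, WT SpV array 1, the Ccn1 difference at 1416039_x_at was 1.67 (limma adjusted p = 0.654).

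In KO lungs Ccn1 varied widely between the spontaneously breathing arrays. Its signal was 1283, 2505 and 2423 on KO HVT arrays, against 475, 3681 and 1945 on KO SpV arrays. The KO SpV arrays spanned a 7.74-fold range that contains all 3 KO HVT values. The difference was 0.39 ± 0.59 (limma adjusted p = 0.847) with all arrays and -0.43 ± 0.40 (adjusted p = 0.538) without KO SpV array 1, so its sign rests on that array. Between genotypes, Ccn1 differed by 0.70 ± 0.59 in SpV lungs and by -0.64 ± 0.59 in HVT lungs (limma adjusted p = 0.66 and 0.688). The SpV value was 1.51 ± 0.40 (adjusted p = 0.0766) without KO SpV array 1 and 0.057 without KO SpV array 2, and the HVT value was -0.29 without WT HVT array 1. The interaction was -1.34 ± 0.83 (limma adjusted p = 1), and -2.15 ± 0.54 (adjusted p = 0.0991) without KO SpV array 1. The second probe set had an interaction of -1.36 ± 1.22, and of -2.64 ± 0.69 (adjusted p = 0.116) without that array.

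Ccn2 had a higher mean signal with ventilation in both genotypes, and the size in KO lungs rested on KO SpV array 1. In KO lungs it read 5227, 4657 and 3902 under HVT, against 1124, 4404 and 3774 under SpV. These groups overlapped, since KO HVT array 3 was below KO SpV array 2. In WT lungs it read 5260, 5742 and 7585 under HVT, against 2773, 3655 and 4130 under SpV, with no overlap. The differences were 0.78 ± 0.39 in KO lungs (limma adjusted p = 0.497) and 0.81 ± 0.39 in WT lungs (adjusted p = 0.717). Omission of KO SpV array 1 gave a KO difference of 0.16 ± 0.20 (adjusted p = 0.648). The interaction was -0.04 ± 0.56, with a 95% interval of -1.25 to 1.17, and -0.65 ± 0.27 (adjusted p = 0.276) without that array.

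The ventilation difference of Ccn2 averaged over genotypes was 0.80 ± 0.28, a 1.74-fold higher signal, at a limma adjusted p of 0.247. An exact permutation of ventilation labels within each genotype, two-sided with 400 arrangements and a smallest possible p of 0.005, gave p = 0.01. The same exact test gave p = 0.075 for Ccn1, 0.225 for Hbegf, 0.68 for Ankrd1 and 0.75 for Egfr, 5 genes being tested in this way with no adjustment. Without KO SpV array 1 the Ccn2 difference was 0.49 ± 0.13, which passed in limma (adjusted p = 0.0494), with an exact permutation p of 0.02. In that limma fit 962 of 15855 probe sets passed for this comparison. Between genotypes, Ccn2 was 0.42 ± 0.39 lower in KO than in WT lungs under HVT, without overlap, and the limma adjusted p was 0.692. Summed endothelial markers were 9607 to 11436 in KO HVT lungs, against 16432 to 26381 in WT HVT lungs, and alveolar type I markers 16593 to 22244 in KO HVT lungs, against 32039 to 46451 in WT HVT lungs. The part of these cells in the Ccn2 difference was not tested. Under SpV the difference was -0.38 ± 0.39 (adjusted p = 0.729), and 0.23 ± 0.20 without KO SpV array 1.

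**Figure D2:**
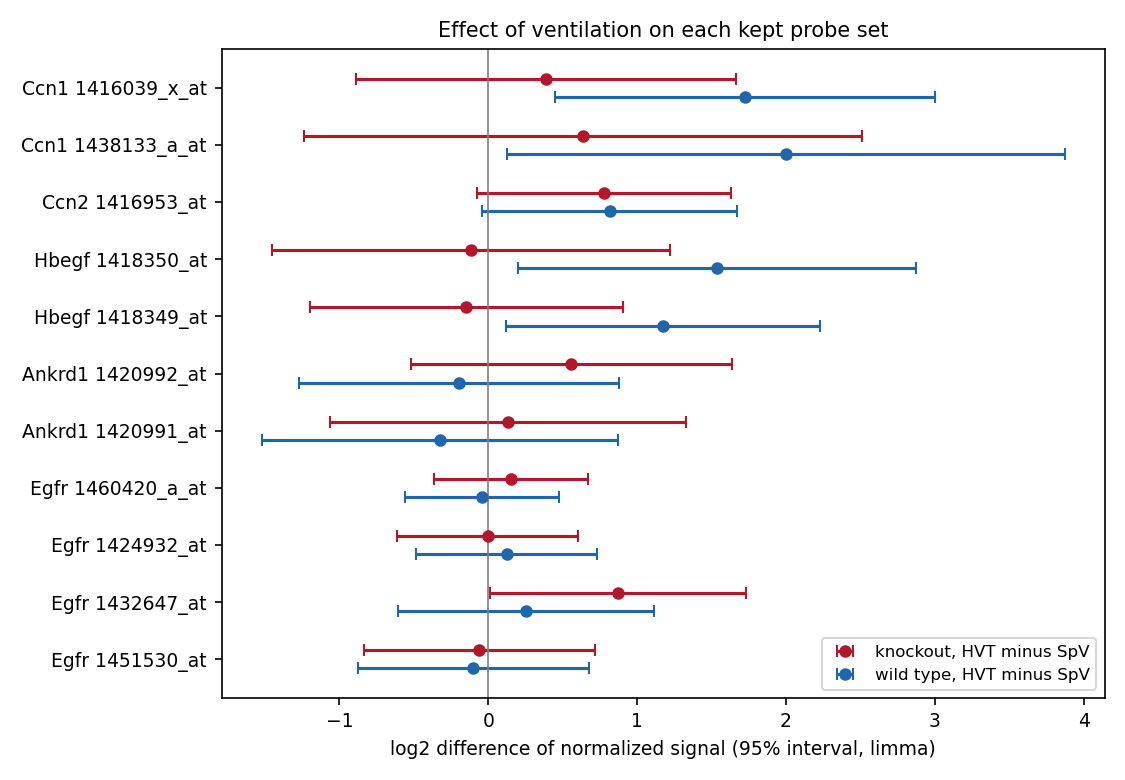
Log2 difference of normalized signal, HVT minus SpV, with its 95% interval from limma (not adjusted for the number of tests), for the 11 kept probe sets in knockout (red) and wild-type (blue) lungs. Intervals of the Ccn1 and Hbegf probe sets exclude 0 in wild-type lungs and include it in knockout lungs. That of Egfr 1432647_at excludes 0 in knockout lungs (0.013 to 1.73) and includes it in wild-type lungs. No member interaction was called with all arrays, so a difference between genotypes is not shown. Ccn2 differs by 0.78 in knockout and 0.81 in wild-type lungs (0.16 in knockout lungs without KO SpV array 1).

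Hbegf, the only EGF receptor ligand of the set with a probe set, separated the WT groups but spread widely under ventilation. Probe set 1418350_at read 4297, 774 and 2433 on WT HVT arrays, against 681, 764 and 612 on WT SpV arrays. WT HVT array 2 exceeded the highest control array by a small margin, and the other two were far above it. The difference was 1.54 ± 0.61, a 2.90-fold higher signal (limma adjusted p = 0.585), and 2.22 without WT HVT array 2 and 0.99 without WT HVT array 1. The dimmer probe set, 1418349_at, followed the first with r = 0.978 and differed by 1.17 ± 0.48 (limma adjusted p = 0.603).

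In KO lungs Hbegf was high in spontaneously breathing lungs on 2 of 3 arrays. It read 1340, 1077 and 1495 on KO HVT arrays, against 478, 2225 and 2562 on KO SpV arrays. KO SpV arrays 2 and 3 were above every KO HVT array and every WT SpV array, and KO SpV array 1 was below them all. The summed signal of 8 neutrophil markers was also highest on KO SpV arrays 2 and 3, at 22706 and 12875, against at most 8755 on the other arrays, and so was that of 6 macrophage markers, at 10298 and 8352. Their part in the Hbegf values was not tested. The KO ventilation difference was -0.12 ± 0.61 (limma adjusted p = 0.966), and -0.88 ± 0.49 (adjusted p = 0.283) without KO SpV array 1. KO exceeded WT in SpV lungs by 1.02 ± 0.61 (limma adjusted p = 0.517), and by 1.78 ± 0.49 (adjusted p = 0.0844) without that array. In HVT lungs KO differed from WT by -0.63 ± 0.61 (adjusted p = 0.705).

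With all arrays, Hbegf probe set 1418350_at had the largest interaction of the members at -1.65 ± 0.87. That of 1418349_at was -1.32 ± 0.69, and neither was called (limma adjusted p = 1 for both). Without KO SpV array 1 the Hbegf values were -2.41 ± 0.65 and -1.95 ± 0.49 (adjusted p = 0.125 and 0.0991), beside -2.64 for Ccn1 (1438133_a_at). Limma was also run with arrays weighted by how closely they lay to the fitted group means. This gave KO SpV array 1 a weight of 0.129 and KO SpV array 3 a weight of 3.69. The Hbegf interactions were then called at -2.54 ± 0.52 (limma adjusted p = 0.029) and -2.04 ± 0.41 (adjusted p = 0.0272). Under the same weights KO exceeded WT in SpV lungs by 1.83 ± 0.35 and 1.28 ± 0.28 (adjusted p = 0.00687 and 0.0123). Of all 15855 probe sets, these weights called 346 for the interaction and 1700 for KO against WT in SpV lungs. Across arrays, Ccn1 correlated with Hbegf at r = 0.840 and with Ccn2 at r = 0.733, and Ccn2 with Hbegf at r = 0.575, over 12 arrays that share their normalization and include KO SpV array 1.

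Several other measures moved with ventilation in WT lungs. The beta-actin 3' to 5' ratio was 1.53 to 1.99 on WT HVT arrays, against 2.08 to 2.51 on WT SpV arrays, and correlated negatively with Ccn1, Ccn2 and Hbegf over the 12 arrays (r from -0.813 to -0.557, and from -0.507 to -0.354 without KO SpV array 1). With this ratio as a covariate the WT ventilation differences were 1.32 ± 0.39 for Ccn1 (1416039_x_at), 0.49 ± 0.17 for Ccn2 and 1.20 ± 0.50 for Hbegf (1418350_at), with limma adjusted p = 0.136, 0.187 and 0.275. The summed signal of 8 smooth muscle markers was 10804 to 14649 in WT HVT lungs, against 9827 to 10490.0 in WT SpV lungs. That of 8 fibroblast markers was 14934 to 22551 in WT HVT lungs, against 25384 to 28262 in WT SpV lungs. The 2 kept red cell markers, of 6 listed, summed to 926 to 1288 in WT HVT lungs, against 2722 to 3185 in WT SpV lungs. The 6 kept macrophage markers gave 6436 to 6989.96 in WT HVT lungs, against 7511 to 7820.1 in WT SpV lungs, and the 3 kept B cell markers 484 to 691 in WT HVT lungs, against 746 to 969.6 in WT SpV lungs. Mesothelial markers separated by their sum (3637 to 4499 in WT HVT lungs, against 2748 to 3565 in WT SpV lungs) but not by their mean log2 score, 0.058 in WT HVT and 0.074 in WT SpV lungs. Macrophage scores overlapped too, with 0.229 on WT HVT array 1 against 0.151 on WT SpV array 1. Alveolar type II markers also separated by sum, while their scores overlapped (0.215 on WT HVT array 2 against 0.193 on WT SpV array 1). The part of these cell types in the results was not tested.

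The kept probe sets of Egfr, the receptor, did not all vary together, and none was called with all arrays. The brightest, 1460420_a_at, read 535, 526 and 611 in KO HVT lungs, against 768, 427 and 376 in KO SpV lungs, and 603, 418 and 462 in WT HVT lungs, against 523, 516 and 471 in WT SpV lungs. All groups overlapped. Ventilation differences were 0.15 ± 0.24 in KO lungs and -0.04 ± 0.24 in WT lungs, with 95% intervals of -0.36 to 0.67 and -0.56 to 0.48 (limma adjusted p = 0.85 and 0.994). Genotype differences were -0.01 ± 0.24 under SpV and 0.18 ± 0.24 under HVT (limma adjusted p = 0.988 and 0.792). Without KO SpV array 1 the KO ventilation difference was 0.46 ± 0.17 (adjusted p = 0.128) and the SpV genotype difference -0.32 ± 0.17 (adjusted p = 0.398).

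Probe set 1432647_at showed the largest Egfr difference. It read 333, 321 and 511 on KO HVT arrays, against 417, 126 and 148 on KO SpV arrays, and 348, 153 and 178.9 on WT HVT arrays, against 193, 153 and 186 on WT SpV arrays. KO SpV array 1 was the single high value of its group. The KO ventilation difference was 0.87 ± 0.40 (limma adjusted p = 0.439) with that array and 1.37 ± 0.30 (adjusted p = 0.0237) without it, when the average over genotypes was 0.81 ± 0.20 (adjusted p = 0.0381) in place of 0.56 ± 0.28. KO differed from WT under HVT by 0.79 ± 0.40 (adjusted p = 0.443). With array weights, 1432647_at was called for ventilation in KO lungs (1.28 ± 0.24, adjusted p = 0.00748), for the average (0.68 ± 0.17, adjusted p = 0.0205) and for KO against WT under HVT (0.92 ± 0.25, adjusted p = 0.049), and 1460420_a_at for ventilation in KO lungs (0.48 ± 0.15, adjusted p = 0.0498). Of all 15855 probe sets, these weights called 2232, 2118 and 860 in these 3 comparisons. Leaving out KO SpV array 1 called 988 for ventilation in KO lungs and 962 for the average, against 0 and 20 in the main fit. Probe set 1424932_at gave genotype differences of the other sign, -0.28 ± 0.28 under SpV, -0.41 ± 0.28 under HVT and -0.35 ± 0.20 averaged (limma adjusted p = 0.72, 0.578 and 0.364). With KO SpV array 1 omitted, the SpV and averaged values were -0.014 and -0.21. The dimmest kept probe set, 1451530_at, lay between 81.0 and 196 and reached 100 on 6 arrays.

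Across the 12 arrays, Egfr probe set 1460420_a_at correlated with 1432647_at at r = 0.836 and with 1451530_at at r = 0.758, but with 1424932_at at r = -0.606. The log2 beta-actin ratio tracked the same division, with r = 0.864, 0.701 and 0.687 for the first 3 and -0.732 for 1424932_at. Without KO SpV array 1 these correlations were 0.753, 0.742, 0.501 and -0.519. Where the probe sets bind on the Egfr transcript was not looked up, so no probe set was preferred to another.

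**Figure D3:**
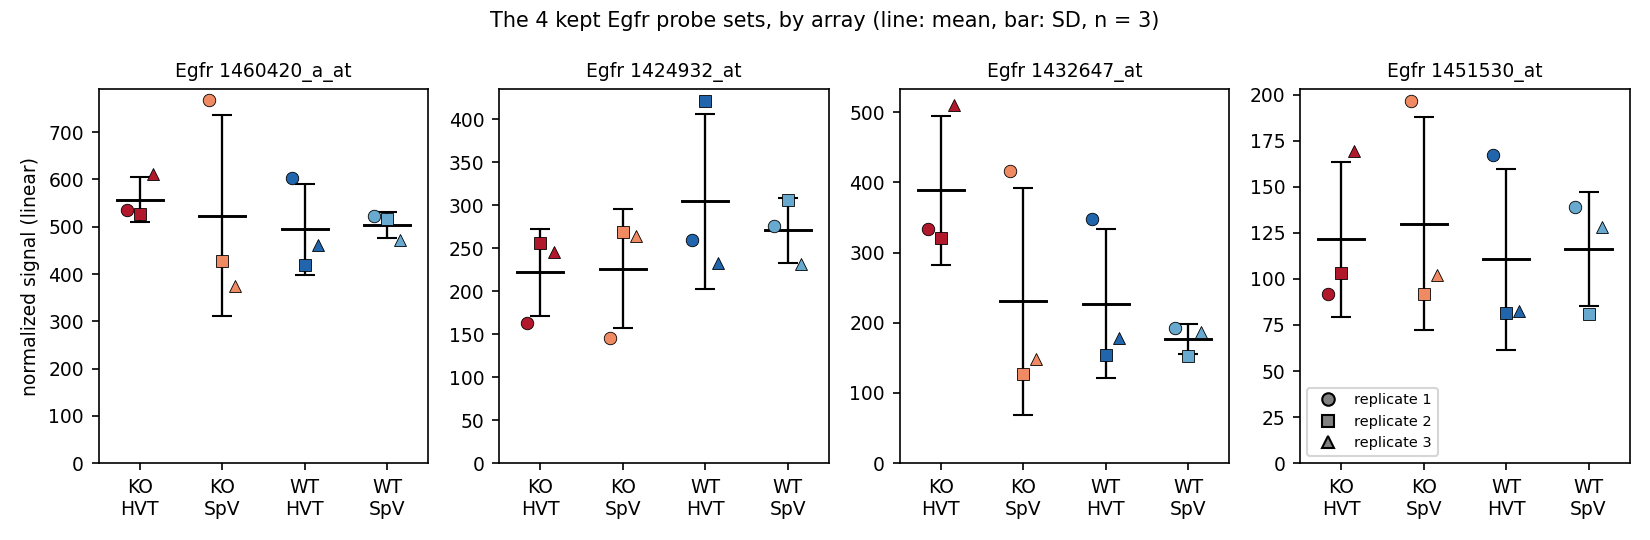
Normalized signal (linear) of the 4 Egfr probe sets that passed the filter on each of 12 arrays, by group, with the mean as a line and the SD as a bar (n = 3). KO SpV array 1 (circle) is the highest KO SpV array at 1460420_a_at, 1432647_at and 1451530_at and the lowest at 1424932_at, and each y axis has its own range from 0.

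Ankrd1 had its larger differences between genotypes, none of which was called with all arrays. Probe set 1420992_at read 3359, 3425 and 2338 in KO HVT lungs, against 635, 899.8 and 2877 in WT HVT lungs, and 1038, 2680 and 2997 in KO SpV lungs, against 1658, 1423 and 1066 in WT SpV lungs. The genotypes overlapped under both kinds of breathing, through WT HVT array 3 and through KO SpV array 1. KO exceeded WT by 1.33 ± 0.50 under HVT (limma adjusted p = 0.294), by 0.57 ± 0.50 under SpV (adjusted p = 0.667) and by 0.95 ± 0.35 averaged over breathing, a 1.93-fold higher signal (adjusted p = 0.159). The SpV value was 1.05 ± 0.46 (adjusted p = 0.282) without KO SpV array 1. The averaged difference passed without KO SpV array 1, at 1.19 ± 0.31 (adjusted p = 0.0439), and without WT HVT array 3, at 1.27 ± 0.27 (adjusted p = 0.0351). Without KO SpV array 1, 850 of 15855 probe sets passed in this comparison. The second Ankrd1 probe set, 1420991_at, gave an average of 0.96 ± 0.39 (adjusted p = 0.201).

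Ventilation differences of Ankrd1 were small beside their errors, at 0.56 ± 0.50 in KO lungs and -0.20 ± 0.50 in WT lungs (limma adjusted p = 0.716 and 0.975, 1420992_at). Those of 1420991_at were 0.13 ± 0.55 in KO lungs and -0.33 ± 0.55 in WT lungs. The interaction at 1420992_at was 0.76 ± 0.70 (adjusted p = 1). Without KO SpV array 1 the KO values were 0.080 (1420992_at) and -0.41 (1420991_at), and the interaction was 0.28 ± 0.62 (adjusted p = 0.872). Ankrd1 correlated with Ccn1 at r = 0.144 and with Ccn2 at r = 0.253 over the 12 arrays.

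Markers of heart muscle moved with Ankrd1. All 14 markers of the list (Myh6, Tnnt2, Tnni3, Actc1, Myl7 and others) passed the filter, and none was at 0. Their summed signal was 63897 to 80102 in KO HVT lungs, against 29221 to 47190.4 in WT HVT lungs, and 51173 to 62849 in KO SpV lungs, against 30200.4 to 43680.4 in WT SpV lungs. By this sum KO arrays lay above WT arrays under both kinds of breathing. By the mean log2 score of the 14 markers, KO SpV arrays 1 and 2 (0.130 and 0.129) were just below WT SpV array 1 (0.134), so the SpV groups overlapped. WT HVT array 3, the WT array with the highest Ankrd1 signal, also had the highest summed heart signal of the WT arrays. Its score of -0.153 was below those of WT SpV arrays 1 and 2 (0.134 and -0.139). Log2 Ankrd1 signal correlated with the mean heart score at r = 0.820 (1420992_at) and 0.793 (1420991_at), and the gene most like Ankrd1 over the 12 arrays was Actc1, the cardiac actin, at r = 0.961. Cardiac muscle surrounds the pulmonary veins of mice and heart tissue lies beside the dissected lung. The part of heart muscle in the Ankrd1 difference was not tested.

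**Figure D4:**
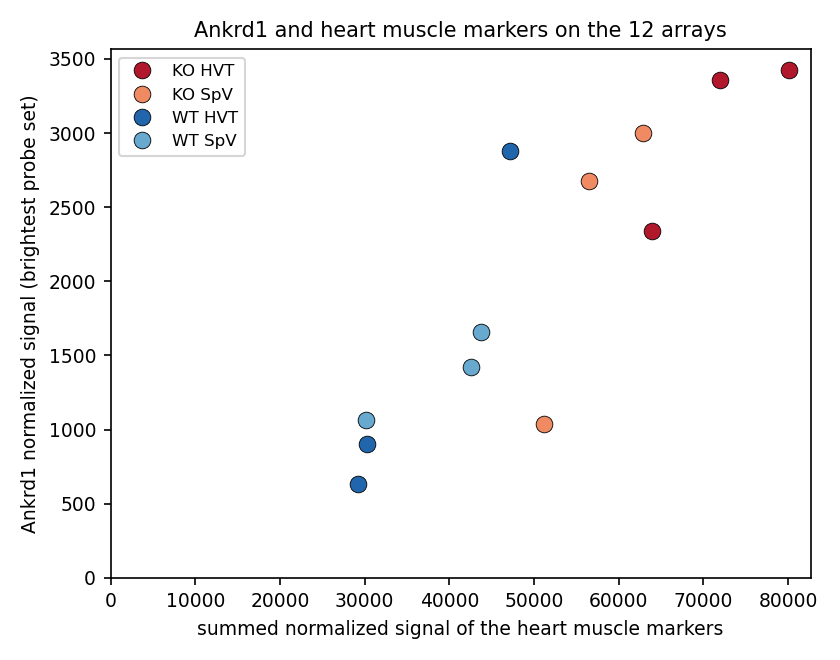
Ankrd1 signal (1420992_at, y axis, linear) against the summed normalized signal of 14 heart muscle markers (x axis, linear) on the 12 arrays, coloured by group. KO arrays lie at 51173 to 80102 and WT arrays at 29221 to 47190.4 on the x axis, and the highest Ankrd1 signals, 3359 and 3425, lie at its right end. KO SpV array 1 (51173, 1038) lies low for its heart signal, and WT HVT array 3 (47190.4, 2877) is above KO HVT array 3 (63897, 2338).

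Genes whose profile over the 12 arrays was most like that of a member were taken as the 3 highest Pearson correlations of log2 signal among the brightest probe sets of 9333 genes. For Ccn1 these were Thbs1, which encodes the matrix protein thrombospondin-1 (r = 0.937), the stress-responsive polo-like kinase gene Plk3 (r = 0.925) and the protein kinase A inhibitor gene Pkib (r = 0.918). For Ccn2 they included the nuclear import receptor gene Ipo5 (r = 0.960) and the Mediator subunit gene Med6 (r = 0.949). For Hbegf they were the immediate early gene Ier5 (r = 0.923), the cholesterol 25-hydroxylase gene Ch25h (r = 0.919) and Psca, a surface antigen gene (r = 0.906). After Actc1, the closest to Ankrd1 were the transporter genes Slc47a1 (r = 0.937) and Slc16a1 (r = 0.936). For Egfr they were Cux1 (r = 0.961), the nuclear receptor gene Esrrg (r = 0.955) and Ubxn1 (r = 0.947). KO SpV array 1 was lowest for Ccn1, Ccn2 and Hbegf and highest for Egfr, and the profiles were not compared without it. Log2 beta-actin ratio correlated with Ccn2 at r = -0.813 and with Egfr at 0.864 (-0.354 and 0.753 without that array). Dim genes were among those named, such as Pkib (26.9 to 177), Med6 (23.0 to 177) and Psca (31.2 to 261). Shared regulation was not tested.

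The wider pathway was read through 13 lists chosen with earlier results in view, of which 12 had members past the filter, with 98 of 133 genes kept. No listed gene was called in either ventilation comparison, their average, the genotype comparisons within SpV or HVT lungs, or the interaction (0 of 98 each). At an unadjusted p under 0.05 there were 16 of 98 in WT ventilation (7.28% of all probe sets), 14 in KO ventilation (11.1%) and 19 in their average (13.2%). Their median difference was -0.04 with ventilation in WT lungs and -0.03 in KO lungs, beside -0.02 and 0.01 over all probe sets.

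Among ligands and their processing, 3 of 9 further EGF family ligands passed the filter. Betacellulin, encoded by Btc, differed by 0.54 ± 0.25 with ventilation in WT lungs (limma adjusted p = 0.683) and by 0.47 ± 0.18 on average (adjusted p = 0.277). Of 9 sheddases and regulators kept from 10 listed, Adam17, the main sheddase of HB-EGF, differed by -0.69 ± 0.28 in ventilated WT lungs (adjusted p = 0.59). Timp3, an inhibitor of ADAM17, averaged 7303 ± 541 in WT HVT lungs and 4598 ± 935 in WT SpV lungs (SD, n = 3), a difference of 0.68 ± 0.27 (adjusted p = 0.585).

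In the genotype comparison averaged over breathing, 2 genes of the sheddase list were called. Adam8, a metalloprotease gene of leukocytes and airway cells, averaged 645 ± 175 in KO HVT lungs and 441 ± 66.7 in WT HVT lungs, and 796 ± 296 in KO SpV lungs and 313 ± 39.9 in WT SpV lungs. It was higher in KO lungs by 0.87 ± 0.20 (limma adjusted p = 0.0362). Timp3 averaged 3239 ± 119 in KO HVT lungs and 7303 ± 541 in WT HVT lungs, and 3547 ± 1470.4 in KO SpV lungs and 4598 ± 935 in WT SpV lungs, where the arrays overlapped. It was lower in KO lungs by 0.81 ± 0.19 (adjusted p = 0.0398), as were the summed endothelial and alveolar type I markers under HVT, whose part was not tested. Both calls lay close to the threshold and were lost without scaling (0.21 and -1.45, adjusted p = 0.71 and 0.126): Adam8 kept its call in 2 and Timp3 in 3 of the 12 fits that left out an array. No gene among the 13 kept signal carriers of the EGF receptor, its 2 kept partner receptors or its 6 kept brakes was called. The brake Errfi1, induced by EGF receptor signalling, averaged 9443 ± 2881 in WT HVT lungs and 4949 ± 1111 in WT SpV lungs, a difference of 0.91 ± 0.43 (adjusted p = 0.701), and 5849 ± 1471 in KO HVT lungs and 8395 ± 5207 in KO SpV lungs. Shc1, an adaptor of the receptor, differed by 0.53 ± 0.15 with ventilation in KO lungs (adjusted p = 0.26).

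Among relatives and targets of the CCN side, F3 had the largest difference of the listed genes named here with ventilation in WT lungs. F3 encodes tissue factor, the trigger of clotting, and is also a YAP target. It averaged 2603 ± 1144 in WT HVT lungs and 653 ± 148 in WT SpV lungs, and 2741 ± 1152 in KO HVT lungs and 1309 ± 442 in KO SpV lungs (SD, n = 3). The differences were 1.89 ± 0.39 in WT lungs (limma adjusted p = 0.188), 1.01 ± 0.39 in KO lungs (adjusted p = 0.382) and 1.45 ± 0.28 averaged (adjusted p = 0.0757). The average passed at 1.58 ± 0.27 (adjusted p = 0.0103) without KO SpV array 1, when 962 of 15855 probe sets passed. Srf, which encodes serum response factor, averaged 1481 ± 566 in WT HVT lungs and 596 ± 65.3 in WT SpV lungs, a difference of 1.22 ± 0.27 (adjusted p = 0.213), and its average over genotypes was 0.83 ± 0.19 (adjusted p = 0.105, and 0.040 without KO SpV array 1). Gadd45a, another target, differed by 1.16 ± 0.43 in WT lungs (adjusted p = 0.533), and Sdc4, the syndecan that acts as a CCN receptor, by 0.51 ± 0.14 (adjusted p = 0.362).

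Of 16 other YAP targets kept, 8 were higher and 8 lower with ventilation in WT lungs. Yap1 itself differed by -0.26 ± 0.10 with ventilation on average (limma adjusted p = 0.303). Among other CCN genes, Ccn5 differed by -0.43 ± 0.26 in WT lungs and Ccn3 by 0.42 ± 0.26 on average. Of the TGF beta list, Smad7 and Tgfb1 differed by -0.54 ± 0.13 and -0.65 ± 0.24 with ventilation on average (adjusted p = 0.104 and 0.272). Both were called once KO SpV array 1 was omitted, at -0.52 and -0.85 (adjusted p = 0.0339 and 0.0198), and Ccn3 was at 0.63 (adjusted p = 0.0855). In that fit 962 of 15855 probe sets were called.

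Between genotypes averaged over breathing, 3 genes of these lists were called, Fjx1, Fhl2 and Tpm2. Fjx1, a YAP target that encodes a four-jointed homologue, averaged 56.1 ± 12.2 in KO HVT lungs and 142 ± 1.74 in WT HVT lungs, and 48.1 ± 5.80 in KO SpV lungs and 123 ± 13.9 in WT SpV lungs. It passed the filter minimum of 100 through WT arrays alone, so its levels are a description and no size of difference is given. Fhl2, a LIM-domain SRF target, was higher in KO lungs by 0.74 ± 0.15 (limma adjusted p = 0.0219), and Tpm2, a muscle tropomyosin, by 0.86 ± 0.16 (adjusted p = 0.0153). With each array omitted in turn, Tpm2 was called 12 of 12 times and Fhl2 7 times. With the deposited values unscaled, Tpm2 and Fhl2 differed by 0.18 and 0.09, where the median of all probe sets moved by -0.60. The summed smooth muscle signal was 15261 to 17676 in KO HVT lungs, against 10804 to 14649 in WT HVT lungs, and 13312 to 16714 in KO SpV lungs, against 9827 to 10490.0 in WT SpV lungs. The summed heart marker signal was also higher in KO lungs under both kinds of breathing. The 5 kept skeletal muscle markers summed to 49760 on KO HVT array 2, against at most 2089 on any other array. The part of these muscles in the Fhl2 and Tpm2 differences was not tested. The TAZ gene Wwtr1 and the Hippo kinase gene Lats2 were 0.57 ± 0.22 and 0.65 ± 0.17 lower in KO lungs without passing (adjusted p = 0.184 and 0.0626). Leaving out KO SpV array 1 gave differences of -0.34 and -0.51 (adjusted p = 0.15 and 0.0467), so Lats2 was called. In that fit 850 of 15855 probe sets were called. Summed endothelial and alveolar type I markers were also lower in KO than in WT lungs under HVT, and their part in these differences was not tested. In all, 5 of 98 listed genes were called in this comparison (Adam8, Timp3, Fhl2, Tpm2 and Fjx1), where 3.27% of all probe sets were. The call of Fjx1 is no support, because the filter kept this gene through the group where it is high.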

How the data were processed

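Total RNA of mouse lungs was hybridised to 12 Affymetrix 430A arrays. The deposited intensity values are probe set signals, made with GCOS 1.4 per the submitters' processing notes. The design text names a scaling of each array to an average of 500, which the deposited values do not show. Each array was therefore scaled to a mean of 500, trimmed by 2% at each end, and quantile normalized, and 16 was added before log2. The 64 AFFX controls were left out, and probe sets were kept at a scaled signal of at least 100 on at least 3 arrays. Group means were fitted with limma 3.58.1 in R 4.3.3 (eBayes with trend, 8 residual and 4.38 prior degrees of freedom) over 7 contrasts. Tests were two-sided with Benjamini-Hochberg adjustment over 15855 probe sets, and the fit was tested on simulated data. The number of arrays limits the precision.

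Gene names come from the platform annotation (1 gene for 20380 probe sets, several for 691). The members and lists were chosen with earlier results of these data known. The text names every member, the 3 genes most like each, and, from each list, up to 4 genes past the test or otherwise up to 2 with the smallest p. Alternatives covered scaling, pseudocount, filter, one probe set per gene, variance model, replicate block, actin ratio, array weights and leaving out each array. Of 12 pairs of samples with the same replicate number, 4 had deviations from their group means that correlated above 0.1 (range over all pairs -0.181 to 0.269). Pairs of unlike number were not compared, so pairing was neither shown nor excluded. 1 of the genes most like a member is not reported here.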

Additional observations from a re-analysis of the deposited data

How the results depend on the processing

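Refitting the 77 member values under 23 other settings gave 1729 refits, of which 1571 kept direction and side of the threshold, 23 gained a call, 0 lost one and 135 changed sign without a call in either fit. Leaving out 1 array in turn gave 1 to 49 called probe sets for ventilation in WT, 0 to 988 in KO and 0 to 962 averaged, 28 to 298 for KO against WT in SpV, 32 to 727 in HVT and 211 to 850 averaged, and 0 to 101 for the interaction. Each highest count came without KO SpV array 1. In the same order, array weights gave 461, 2232, 2118, 1700, 860, 1944 and 346, and a fit that included the actin ratio gave 68, 122, 756, 583, 213 and 916 for the first 6. The deposited values without scaling gave 1 call for ventilation in WT, 3 averaged, 6 for KO against WT in SpV, 28 in HVT and 128 averaged. The count for ventilation in WT was 7 with equal medians, 8 with pseudocount 1, 9 with pseudocount 64 and 7 with one probe set per gene. Averaged over genotypes it was 8 with equal medians, 13 with pseudocount 1, 2 without the filter, 10 with one probe set per gene and 2 without the intensity trend. One probe set per gene, which tests fewer features, gave 31 for KO against WT in SpV and 69 in HVT. The cause of the other shifts was not tested.

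A replicate block, for samples not shown to be paired, gave 3 calls for ventilation averaged over genotypes in place of 20, and 4, 0, 91, 105, 695 and 0 in the other comparisons, in the order above.

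With array weights, Ccn1 (1416039_x_at), Ccn2 and both Hbegf probe sets were called for ventilation in WT (1.53 ± 0.35, 0.94 ± 0.21, 1.68 ± 0.36 and 1.29 ± 0.29, limma adjusted p = 0.0344, 0.0325, 0.0302 and 0.0325). So were 461 of 15855 probe sets. WT HVT arrays 1, 2 and 3 had weights of 0.655, 0.794 and 2.80, and the WT SpV arrays 1.21, 0.607 and 1.80. KO SpV array 1, weighted 0.129, enters this comparison only through the shared spread. Leaving it out called 0 of 11 members for ventilation in WT. The actin covariate added calls of Ccn2 for ventilation in KO (0.81 ± 0.17, adjusted p = 0.0479) and averaged (0.65 ± 0.12, adjusted p = 0.0172), of Egfr (1432647_at) for the average (0.69 ± 0.16, adjusted p = 0.0375), and of both Ankrd1 probe sets for genotype averaged over breathing (1.22 ± 0.29 and 1.27 ± 0.32, adjusted p = 0.028 and 0.0341). In the exact permutation test, averaged ventilation for Ccn2 was 0.73 (p = 0.415) without scaling and 0.49 to 0.98 without 1 array in turn, with p = 0.055 without KO HVT array 1. The same omissions gave 0.65 to 1.38 for Ccn1, with an exact p of 0.02 without KO SpV array 2, 0.33 to 1.05 for Hbegf, -0.14 to 0.40 for Ankrd1 and -0.042 to 0.21 for Egfr, which was -0.066 without scaling.

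Signs changed as follows, with no call in either fit, and the cause was not tested. For the Ccn2 interaction the values were 0.083 with trimmed-mean scaling alone, 0.020 with equal medians and 0.32 with the actin covariate, and for Ccn2 KO against WT in HVT 0.073 with the actin covariate. Without scaling, ventilation in KO was -0.23 for Ankrd1 (1420991_at) and -0.13 for Egfr (1460420_a_at), and KO against WT in HVT was -0.66 for that Egfr probe set, where the median of all moved by -0.77. With the actin covariate the same Egfr probe set had 0.12 for ventilation in WT and -0.071 for KO against WT in HVT. With array weights, ventilation in KO was -0.17 and -0.30 for the 2 Ccn1 probe sets and -0.43 for Ankrd1 (1420991_at), ventilation in WT was 0.50 and 0.39 for Ankrd1, whose interaction was -0.42, and KO against WT in SpV was 0.10 for Ccn2 and 0.022 for Egfr (1424932_at). Leaving out 1 array gave, for ventilation in KO, -0.43 to 1.03 and -0.64 to 1.58 for Ccn1, -0.88 to 0.31 and -0.77 to 0.18 for Hbegf, -0.41 to 0.50 for Ankrd1 (1420991_at) and -0.043 to 0.46 for Egfr. For ventilation in WT it gave -0.83 to 0.24 and -0.93 to 0.091 for Ankrd1 and -0.19 to 0.068 for Egfr, for KO against WT in SpV -0.75 to 0.23 for Ccn2 and -0.32 to 0.18 for Egfr, and for the Ccn2 interaction -0.65 to 0.32. The SE between 2 groups sets the size of difference that 3 arrays a group resolve, and its median over all probe sets was 0.241. It was larger for Ccn1, Hbegf and Ankrd1 (0.48 to 0.86) and for Ccn2 (0.39), and 0.24 to 0.40 for Egfr. Smaller differences in those genes were thus less well resolved than in a typical probe set.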
